A study of Rattus norvegicus with 14 samples.

Results

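Galanin (Gal, ENSRNOG00000015156), prodynorphin (Pdyn, ENSRNOG00000026036), corticotropin-releasing hormone (Crh, ENSRNOG00000012703), cholecystokinin (Cck, ENSRNOG00000019321) and tyrosine hydroxylase (Th, ENSRNOG00000020410) were examined in the rat supraoptic nucleus (SON). These 5 genes, 4 peptide precursors and 1 enzyme, were picked by Ensembl ID for what they encode, with earlier results of these data known. All 5 were present among the 32623 genes of the deposited table. The pairing of symbol and ID came with the definition of the gene group and could not be looked up in the tables used here. All 5 were among the 15178 genes that passed the filter on low values, and each of them did so in all 14 libraries.

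The SON is a hypothalamic nucleus of large (magnocellular) neurons that make vasopressin or oxytocin and release them from the posterior pituitary. These neurons also make smaller amounts of other peptides. Galanin and dynorphin are known companions of vasopressin, and dynorphin, released from the same vesicles, acts on kappa opioid receptors to restrain the firing of the cell that released it. Cholecystokinin and corticotropin-releasing hormone are known chiefly from oxytocin neurons. Tyrosine hydroxylase, the rate-limiting enzyme of catecholamine synthesis, is a known product of magnocellular neurons too. Transcripts of several of these genes are known to rise when the animal is short of water.

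All libraries came from male Sprague Dawley rats of 250 to 300 g in normal water balance (euhydrated), with free access to food and water. An adeno-associated virus delivered stereotaxically to the SON carried either a control microRNA (miCtl, 7 libraries) or a microRNA against Rasd1 (miRasd1, 7 libraries), so both groups had received a virus. The protein made from Rasd1 is a small GTPase that glucocorticoids induce and that is known to restrain cAMP signalling. The labels name neither the promoter driving the microRNA nor the cells it reached, and the SON was taken as a 1 mm punch of 100 µm sections, so neighbouring cells are included.

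Titles number the libraries 1, 2, 3, 4, 8, 11 and 12 in both groups, and libraries of one number are treated here as a pair. Whether each library is from its own rat is not stated in the labels. A p-value here therefore measures spread between punches or, where pairs are used, the spread of differences within pairs. Either spread may be partly technical. Depth was 19968058 to 28345441 reads per library. Values are normalised reads, that is, read counts divided by 1 size factor per library. They are not divided by transcript length, so levels are compared between libraries and not between genes. Rasd1, the markers of magnocellular neurons and of other cell types, the receptors of these peptides and the other genes of catecholamine synthesis could not be looked up by symbol. The knockdown itself and the cell content of the punches were therefore not checked. In such tissue, fewer cells that express a gene cannot be told apart from less RNA per cell.

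The study asked which SON transcripts differ when Rasd1 is knocked down. Among these genes, Th was lower in miRasd1, at 0.703 times the miCtl level (95% interval 0.600 to 0.823), and Cck was higher, at 2.03 times (1.35 to 3.03). Gal lay lower by less (0.783 times, 0.632 to 0.970), and the intervals of Pdyn and Crh included no difference. With all 14 libraries only Th passed a threshold adjusted over all genes, and in limma it did so only where libraries were compared within pairs. In limma without the pairs, 0 of the 5 genes passed a Benjamini-Hochberg adjusted p of 0.05 (3 at an unadjusted p under 0.05), against 0.145% of all tested genes. At an unadjusted p under 0.05 the share of all tested genes was 9.88%. With the number as a block, limma called 1 of 5, against 0.988% of tested genes (0.204% in the lower direction). Without the block, edgeR called 0 of the 5 genes, against 0.119% of tested genes (3 at an unadjusted p under 0.05, against 10.1%). Likewise limma-voom called 0, against 0.0527% of tested genes (3 at an unadjusted p under 0.05, against 9.89%). DESeq2 called 1, again Th, against 1.12% of the genes it gave an adjusted p. In DESeq2, 2 of the 5 genes, Th and Cck, were at an unadjusted p under 0.05, and Gal was not (DESeq2 unadjusted p = 0.0634). Over the whole data, 1618 genes were under it, counted with or without an adjusted p, which 15296 genes had. A share of all genes was not computed for this count. For the 5 genes these DESeq2 values are those of the authors' deposited table, so they are not separate results. Over the 5 genes the limma log2 fold changes had a median of −0.13, against −0.0012 over all 15178 tested genes.

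**Figure D1:**
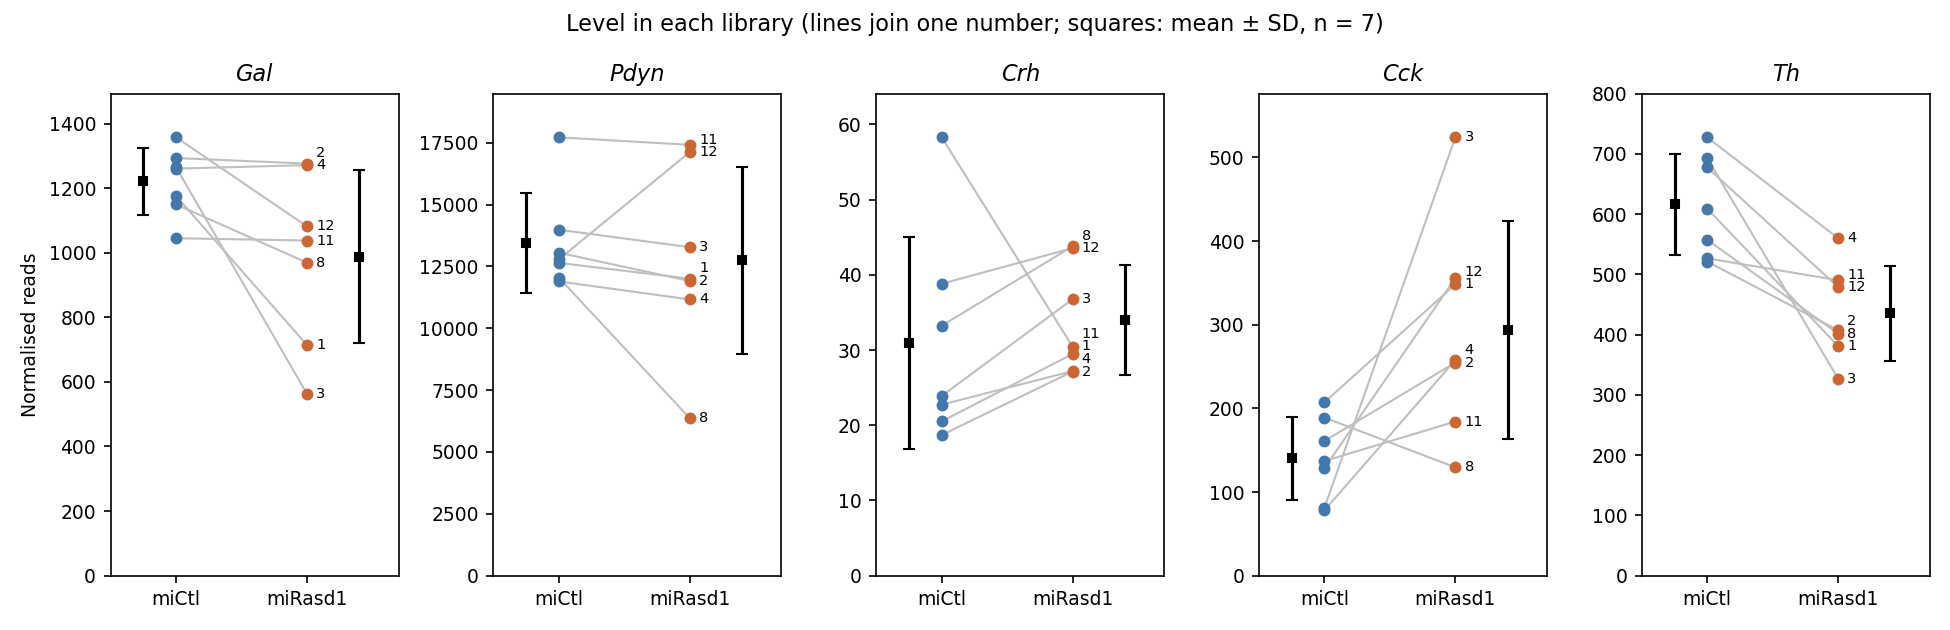
Normalised reads (vertical axes, each from 0) of the 5 genes in the 7 miCtl (blue) and 7 miRasd1 (orange) libraries; grey lines join libraries of one number, which is printed beside the miRasd1 point, and black squares with bars give mean ± SD. Every Th line slopes down, from a mean of 616 to 435 normalised reads, and 6 of the 7 Cck lines slope up.

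**Figure D2:**
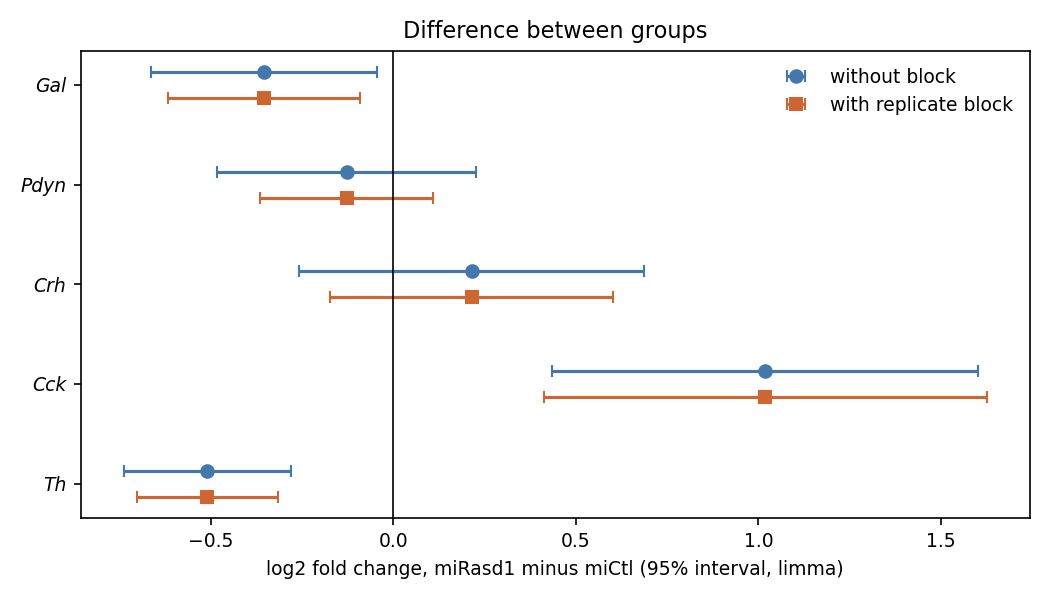
Log2 fold change of miRasd1 minus miCtl with its 95% interval from limma, without (blue circles) and with (orange squares) the number as a block. The intervals of Th, Gal and Cck lie to one side of 0 in both fits, whereas those of Pdyn and Crh cross it.

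Galanin and dynorphin, the companions of vasopressin, come first. Gal ran from 1045 to 1357 normalised reads in miCtl, with a median of 1260. In miRasd1 it ran from 563 to 1276, with a median of 1038. Libraries miRasd1 3 (563) and miRasd1 1 (714) lay far under every miCtl library. In all, 4 of the 7 miRasd1 libraries were under the miCtl range and 3 were inside it. The mean was 1221 ± 104 for miCtl and 987 ± 268 for miRasd1 (SD, n = 7 each). Relative to the mean, the spread was 8.56% in miCtl and 27.1% in miRasd1, where counting error alone would give about 2.89% and 3.13%. Whether the spreads differ was not tested.

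The log2 fold change of Gal was −0.35 (SE 0.15) with a limma adjusted p of 0.407, or 0.189 with the block. In the authors' deposited table (DESeq2) Gal has a log2 fold change of −0.31, an unadjusted p of 0.0634 and an adjusted p of 0.535. An exact two-sided permutation test of this gene alone gave p = 0.0501, and an exact sign-flip permutation test over the 7 pairs gave p = 0.0469. Gal was lower in 6 of 7 pairs, but in pairs 2, 4 and 11 the miRasd1 level was 0.987, 1.01 and 0.993 times the miCtl level. The ratio was 0.445 in pair 3 and 0.607 in pair 1, and 0.843 and 0.797 in pairs 8 and 12. Leaving out pair 3 brought the log2 fold change to −0.22.

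Pdyn measured 11892 to 17718.5 normalised reads in miCtl (median 12784) and 6363 to 17416 in miRasd1 (median 12005). The groups overlapped almost wholly, with 5 of 7 miRasd1 libraries inside the miCtl range. Library miRasd1 8, at 6363, held far less Pdyn than any other library. The highest values of both groups, 17718.5 and 17416, belonged to pair 11. Means were 13446 ± 2006 and 12752 ± 3780 (SD, n = 7 each).

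For Pdyn a log2 fold change of −0.13 with an SE of 0.17 was found (limma adjusted p = 0.879, blocked 0.648), and the 95% interval ran from 0.716 to 1.17 times the miCtl level. With the block it ran from 0.777 to 1.08 times. Exact permutation p was 0.589 over libraries and 0.516 over pairs. In 5 of the pairs the ratio of miRasd1 to miCtl was between 0.912 and 0.983, in pair 8 it was 0.528 and in pair 12 it was 1.34. Without library miRasd1 8 the direction turned, to a log2 fold change of 0.03, and without pair 8 it was 0.004.

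Cholecystokinin and corticotropin-releasing hormone, the peptides known from oxytocin neurons, both lay higher in 6 of 7 pairs. Of all tested genes, 10.9% were higher in at least 6 of the 7 pairs. Cck ranged from 78.1 to 207 normalised reads in miCtl (median 137). In miRasd1 it ranged from 129 to 524 (median 258). Of the 7 miRasd1 libraries, 5 were above every miCtl library and 2, miRasd1 8 (129) and miRasd1 11 (184), were inside the miCtl range. Means were 140 ± 49.6 and 293 ± 130 (SD, n = 7 each).

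The log2 fold change of Cck was 1.02 (SE 0.28), and 21 of the 15178 tested genes had a higher one. Its limma adjusted p was 0.174, or 0.109 with the block, and its exact permutation p was 0.0111 over libraries and 0.0469 over pairs. In the authors' deposited table Cck has a log2 fold change of 1.06 and an adjusted p of 0.0558. The pairs differed widely. Cck was 6.44-fold higher in pair 3, 3.30-fold in pair 4, 2.76-fold in pair 12, and 1.34-fold to 1.68-fold in pairs 1, 2 and 11, but in pair 8 the ratio was 0.685. The residual SD of Cck was exceeded by 1.96% of tested genes. Without library miRasd1 8, limma gave a log2 fold change of 1.19 (adjusted p = 0.0465), and without pair 8 it gave 1.28 (adjusted p = 0.0549, or 0.0193 with the block). Calls rose over all genes too. Of the 15178 tested genes, 81 were called without miRasd1 8 and 39 without pair 8, against 22 with all libraries. With the block, 484 were called without pair 8, against 150 with all libraries. Without pair 3 the log2 fold change of Cck was 0.74 (limma adjusted p = 0.544, 0.223 with the block).

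Crh, whose peptide drives the pituitary to release corticotropin when made in the paraventricular nucleus, was scarce in these libraries, at 18 to 54 recovered reads each. Its normalised reads were 18.7 to 58.3 in miCtl (median 23.9) and 27.1 to 43.8 in miRasd1 (median 30.5). All 7 miRasd1 libraries were inside the miCtl range, and the highest value of all was that of miCtl 11. Means were 30.9 ± 14.1 and 34.1 ± 7.31 (SD, n = 7 each). Counting error alone would give a spread of about 18.3% and 16.9% of the mean, and the observed spreads were 45.6% and 21.5%.

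Crh had a log2 fold change of 0.21 with an SE of 0.22 (limma adjusted p = 0.833, blocked 0.641). Exact permutation p was 0.389 over libraries and 0.328 over pairs. The ratio of miRasd1 to miCtl was 1.12 to 1.54 in 6 pairs and 0.522 in pair 11. Without library miCtl 11 the log2 fold change was 0.38, with a limma adjusted p of 0.582. The 95% interval ran from 0.836 to 1.61 times the miCtl level.

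Tyrosine hydroxylase, the enzyme, was lower in 7 of 7 pairs, as were 2.08% of all tested genes. Th ran from 521 to 728 normalised reads in miCtl (median 609). In miRasd1 it ran from 327 to 560 (median 407). Of the 7 miRasd1 libraries, 6 were below every miCtl library, and miRasd1 4, at 560, was inside the miCtl range. Its own partner, miCtl 4, was the highest miCtl library. Means were 616 ± 84.2 and 435 ± 78.6 (SD, n = 7 each). None of the 5 genes separated the groups completely, whereas 0.349% of tested genes did.

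The log2 fold change of Th was −0.51 (SE 0.11), and 93 of the 15178 tested genes had a lower one. Its limma adjusted p was 0.0800 without and 0.0314 with the block (SE 0.09), so in limma with all 14 libraries the call depended on the pairing. The unadjusted limma p of Th was 0.000207 without and 9.33e-05 with the block. Calls over all tested genes rose with the block too, from 22 to 150. The call of Th depended on the filter as well, since with the block and no filter on low values the limma adjusted p was 0.0783. Exact permutation p was 0.00291 over libraries and 0.0156 over pairs, the smallest that 7 pairs can give. In the authors' deposited table, where 1.12% of genes with an adjusted p are under 0.05, Th has a log2 fold change of −0.50 and an adjusted p of 0.00313. DESeq2 on recovered reads without the block gave the same values, so these are not separate results. The ratio of miRasd1 to miCtl was 0.472 in pair 3, 0.625 in pair 1, 0.707 to 0.781 in pairs 2, 4, 8 and 12, and 0.931 in pair 11. With the block, the limma adjusted p rose to 0.0973, 0.111 and 0.106 when pair 1, pair 4 or pair 12 was left out, and stayed under the threshold without any one of the others. In each of the fits without pair 1, 4 or 12, limma called 0 of the 15178 tested genes. The unadjusted limma p of Th there was 0.000468, 0.000318 and 0.000366. Without the block, leaving out library miRasd1 11 brought the limma adjusted p of Th to 0.0499, in a fit that called 59 genes. The log2 fold change stayed between −0.58 and −0.41 whichever library or pair was left out, and was −0.41 without pair 3.

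**Figure D3:**
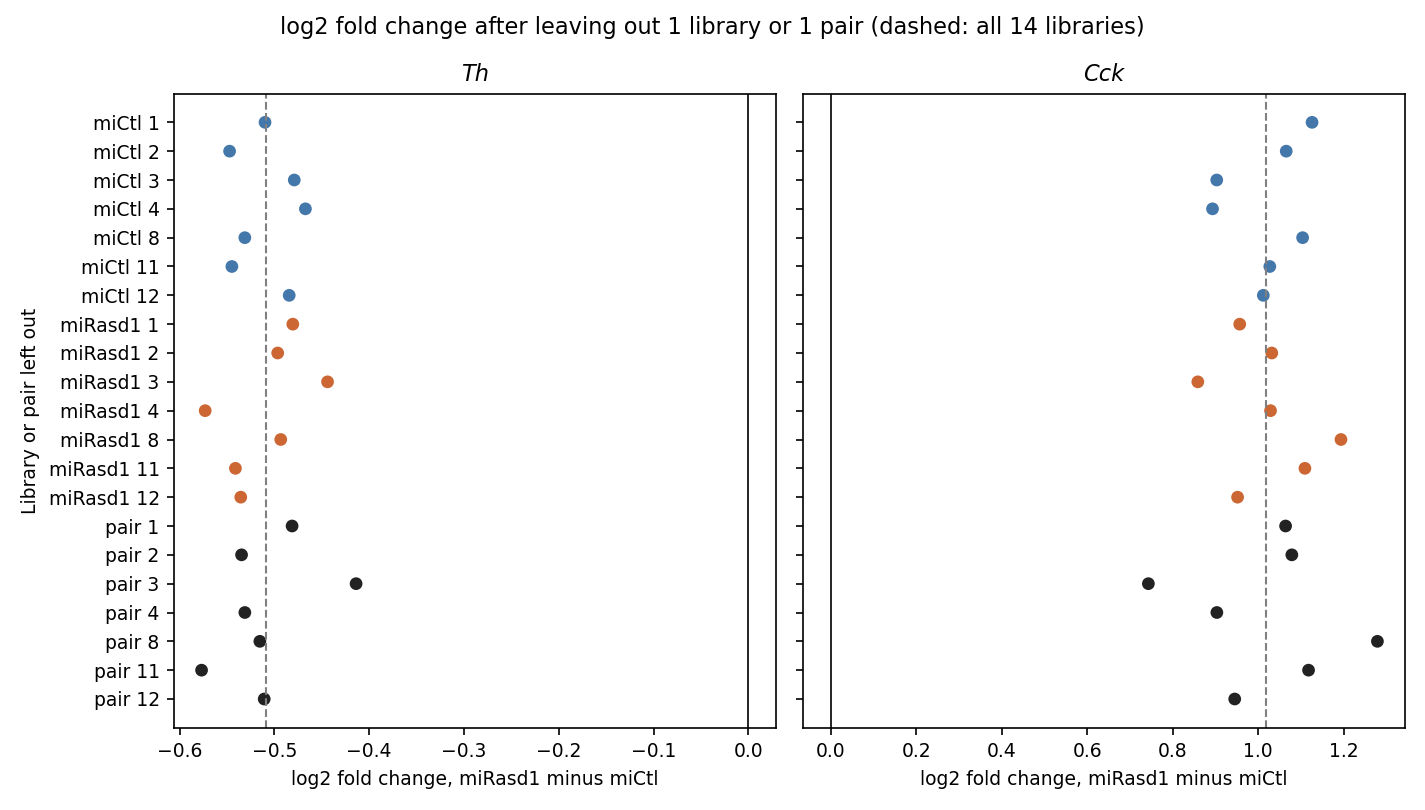
Log2 fold change of Th (left) and Cck (right) in limma without the block after leaving out 1 miCtl library (blue), 1 miRasd1 library (orange) or 1 pair (black); the dashed line is the value with all 14 libraries and the solid line is 0. Th stayed between −0.58 and −0.41 and Cck between 0.74 and 1.28, with pair 3 giving the smallest change of both when left out.

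The 250 bases before and 50 after the transcript start of Th are shown because Th was the gene called in the paired test and because its promoter is known for a cAMP response element (CRE), the site bound by the transcription factor CREB. That of Gal is shown beside it because the differences of Gal and Th were correlated over the 7 pairs, in a comparison added after the data were seen. The relation no longer passed with pairs 1 and 3 left out, and a shared cause was not tested. Both windows are RefSeq sequences on the GRCr8 assembly, minus strand, with each CRE core (TGACG, or CGTCA as read on the other strand) in capitals. The Th sequence is chr1:207508169-207508468 and the Gal sequence chr1:210084523-210084822.
Th: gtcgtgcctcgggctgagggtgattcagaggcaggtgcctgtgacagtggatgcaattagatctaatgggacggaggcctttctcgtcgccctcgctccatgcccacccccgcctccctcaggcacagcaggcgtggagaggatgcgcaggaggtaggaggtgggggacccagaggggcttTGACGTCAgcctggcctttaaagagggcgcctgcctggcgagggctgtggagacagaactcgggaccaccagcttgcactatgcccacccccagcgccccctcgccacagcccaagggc
Gal: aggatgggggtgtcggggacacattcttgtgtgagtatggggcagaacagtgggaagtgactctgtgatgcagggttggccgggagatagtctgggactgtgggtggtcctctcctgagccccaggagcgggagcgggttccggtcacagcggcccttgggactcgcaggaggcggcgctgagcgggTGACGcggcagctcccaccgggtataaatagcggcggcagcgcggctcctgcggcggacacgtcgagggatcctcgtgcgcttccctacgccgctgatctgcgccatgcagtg

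Of the 5 genes, Gal, Pdyn and Th had an entry among the 33469 promoters of the table. The full CRE, TGACGTCA, which reads the same on both strands and contains both cores, was present in the Th window at −69 to −62 from the annotated start. It was present in 1.83% of all promoters of 300 bases. The Gal window held a single core, TGACG, at −63 to −59, and the window of Pdyn held none. A core on either strand was present in 21.2% of all promoters. The AP-1 motif TGAGTCA or TGACTCA, searched on both strands, was in none of these windows and in 4.63% of all promoters. Only these exact letters were searched. Near matches were not counted, so AP-1 sites of other spelling are not excluded. Each of these windows holds such a near match, as TGATTCA in Th, TGACTCT in Gal and TCACTCA in Pdyn. These matches describe the sequence only, and no binding was measured.

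Differences within pairs were then set side by side across the genes. Pair 3 combined the lowest ratio of Th (0.472), the lowest of Gal (0.445) and the highest of Cck (6.44), while its Pdyn ratio was 0.949. Pair 8 went another way, with the lowest Pdyn (0.528) and the only Cck ratio under 1 (0.685), yet Th was 0.721 there. Pair 11 had the smallest Th difference (0.931) and the only Crh ratio under 1 (0.522).

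**Figure D4:**
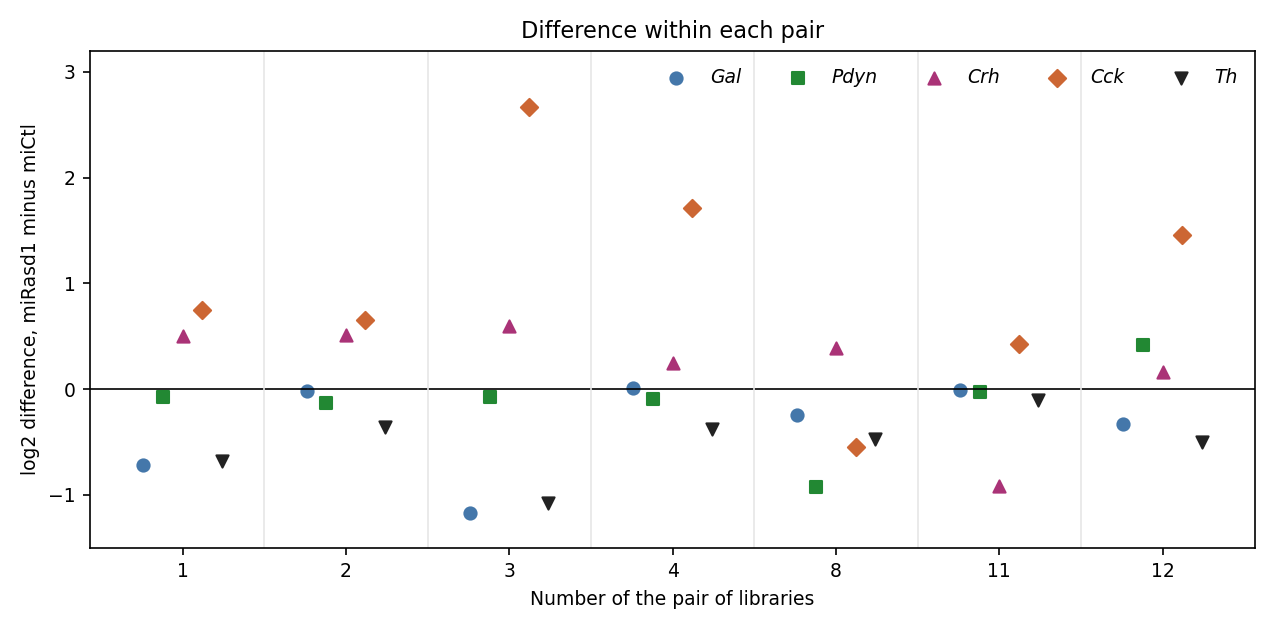
Log2 difference of miRasd1 minus miCtl (vertical axis) for each of the 7 pairs (horizontal axis, by number) and each of the 5 genes (symbols). Th lies under 0 in every pair, Cck above 0 in all but pair 8, and Pdyn close to 0 except in pairs 8 and 12.

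This comparison over pairs was added after the data were seen. Over the 7 pairs, the log2 differences of Gal and Th gave Pearson's r = 0.95 (exact permutation p = 0.00119, adjusted 0.0119 over 10 pairs of genes). Spearman's rho was 0.89 (exact permutation p = 0.0123, adjusted 0.123), so the rank measure did not pass once adjusted. Without pairs 1 and 3, the farthest from the median of Gal, r was 0.71 (exact permutation p = 0.150), so with both left out the relation no longer passed. Leaving out pair 1, 3, 8 or 12 alone also took the adjusted p of r above 0.05 (exact permutation, 0.0833, 0.278, 0.0556 and 0.0556), with r at 0.84 to 0.95. Gal and Th are read in the same libraries, and the points share depth and the tissue content of the punch.

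Between Cck and Th, r was −0.61 (exact permutation p = 0.138, adjusted 0.345; rho = −0.57, exact permutation p = 0.200, adjusted 0.589), and −0.31 without pairs 3 and 8. Between Gal and Cck, r was −0.54 (exact permutation p = 0.230, adjusted 0.383; rho = −0.32, exact permutation p = 0.498, adjusted 0.622), and 0.17 without pairs 1 and 3. Crh and Th gave r = −0.70 (exact permutation p = 0.131, adjusted 0.345; rho = −0.54, exact permutation p = 0.236, adjusted 0.589), and −0.69 without pairs 11 and 12. For Pdyn and Cck, r was 0.62 (exact permutation p = 0.138, adjusted 0.345; rho = 0.39, exact permutation p = 0.396, adjusted 0.622), and −0.10 without pairs 8 and 12. It was 0.087 without pair 8 alone. The other 5 relations had r between −0.49 and 0.26 (exact permutation, adjusted p 0.383 to 0.960). For the mean level of both libraries of a number, 0 of the 10 pairs of genes passed by an exact permutation test, adjusted or unadjusted.

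**Figure D5:**
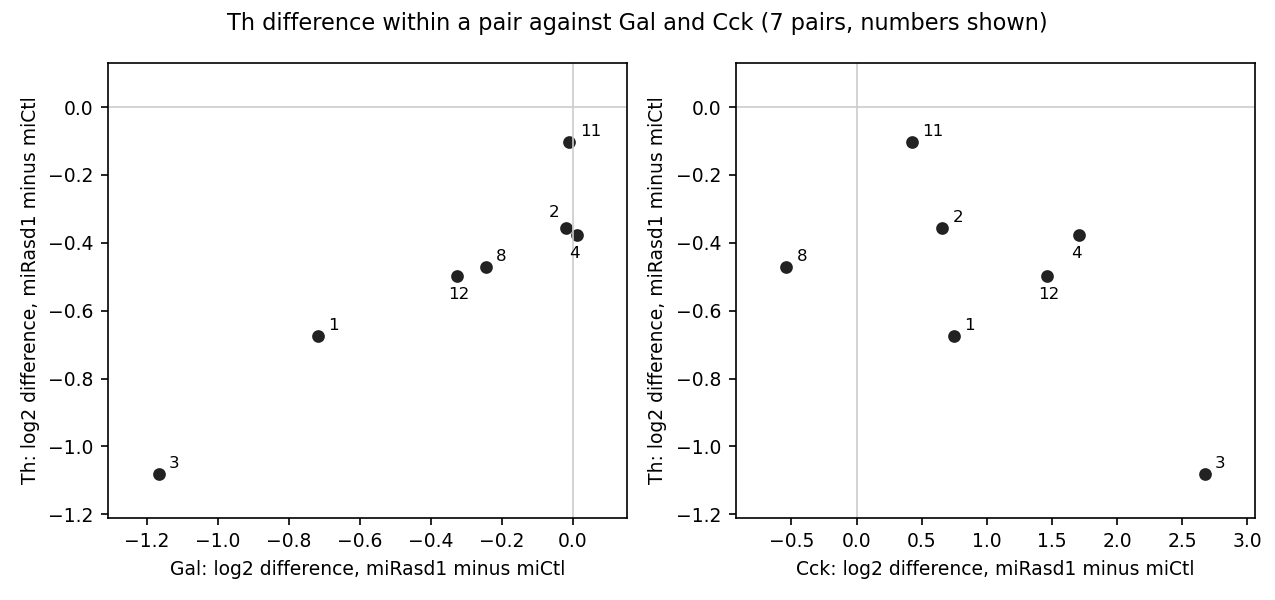
Log2 difference of Th within a pair (vertical axes) against that of Gal (left) and Cck (right), 1 point for each of the 7 pairs with its number. The points follow a line for Gal (r = 0.95), with pairs 3 and 1 at the low end, and scatter for Cck (r = −0.61).

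Whether the level went with the number was examined gene by gene, as the correlation of miCtl with miRasd1 over the 7 numbers. Pearson's r was 0.61 for Pdyn (exact permutation p = 0.167, adjusted 0.566 over 5 genes) and 0.42 for Crh (exact permutation p = 0.340, adjusted 0.566). It was 0.11 for Gal (exact permutation p = 0.808, adjusted 0.808), 0.13 for Th (exact permutation p = 0.791, adjusted 0.808) and −0.45 for Cck (exact permutation p = 0.309, adjusted 0.566). Spearman's rho was 0.79 for Pdyn, 0.71 for Crh, 0.36 for Gal, 0.04 for Th and −0.43 for Cck (exact permutation p = 0.0480, 0.0881, 0.444, 0.963 and 0.354; adjusted 0.220, 0.220, 0.556, 0.963 and 0.556). Without the 2 numbers farthest from the median of miCtl, r was 0.60 for Pdyn, 0.90 for Crh, 0.47 for Gal, −0.46 for Th and −0.14 for Cck. With all 7 numbers none passed adjusted. For Crh the exact permutation p without numbers 11 and 12 was 0.0250, unadjusted, and without number 11 alone r was 0.91 (exact permutation, adjusted p = 0.0486).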

How the data were processed

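RNA of individual SON punches was made into poly(A) libraries, per the labels' protocols. Named in the submitters' processing notes are STAR, featureCounts, DESeq2 and FastQC; tool versions, strand setting and genome build: not given in the sources used here. What the authors deposited is a signal value per gene and library, a read count divided by 1 size factor. Beside it stand the authors' own log2 fold change with standard error, Wald score, p-value and adjusted p-value. Per-library values were whole multiples of 1 step (100% of non-zero values within 0.001), which gave back the reads.

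The test was limma-trend (limma 3.58.1) on log2(value + 1). It took the 15178 genes that reached 10 normalised reads in 7 or more libraries, with Benjamini-Hochberg adjustment over all of them and a threshold of 0.05. The added 1 understates changes of low genes such as Crh. Same-number libraries deviated together over all tested genes (correlation 0.20 to 0.40, against −0.23 to 0.14 between numbers), so the number was also used as a block. edgeR 4.0.16, DESeq2 1.42.0 and limma-voom on recovered reads, other scalings, other pseudocounts, no filter, and leaving out libraries or pairs were the alternatives. Single genes were compared by exact two-sided permutation of 7 against 7 libraries (smallest p 0.000583) and by sign flips over pairs (smallest p 0.0156), both unadjusted. The fits were tested on simulated counts. Intervals cover 95%. In GRCr8, 1 uncharacterised gene overlaps Pdyn and 0 overlap the others; reads of Pdyn and of this gene cannot be told apart if strand was not used. Promoters came from RefSeq (GRCr8).

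The genes, lists and tests were chosen with earlier results of these data known. Lists of related genes and cell type markers were not tested, because 0 of the 47357 RefSeq genes used for names carry an Ensembl ID. By the naming rule the text names the 5 genes and, without symbols, at most 2 IDs of like pattern.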

Additional observations from a re-analysis of the deposited data

Results flagged for a closer look

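Library miCtl 11 held 17718.5 normalised reads of Pdyn, against 11892 to 13983 in the other miCtl libraries. It stood off from the nearest library by 0.641 of the whole range, where 0.568 is the limit for 7 samples at 95% confidence. Chance gives about 1 such case in 20, and 10 sets of 7 values were examined. The miRasd1 library of the same number was also the highest of its group, at 17416.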

How the results depend on the processing

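Over 42 alternatives the direction of Th, Cck, Gal and Crh stayed the same, and that of Pdyn in 39. Th passed the adjusted threshold in 11 (log2 fold change −0.58 to −0.41, adjusted p 4.51e-05 to 0.330), Cck in 2 (0.74 to 1.28, adjusted p 0.0193 to 0.544), and Gal, Pdyn and Crh in 0 (adjusted p of at least 0.161, 0.418 and 0.218). With the replicate block the log2 fold change of Th was −0.51 in limma, edgeR and DESeq2 and −0.50 on TMM or total reads scaling, all past the threshold, as was DESeq2 without the block (−0.50); with all 14 libraries the block changed the call of no other gene of the 5, and without pair 8 it took the adjusted p of Cck from 0.0549 to 0.0193. The block with no filter on low values left Th at an adjusted p of 0.0783. With single libraries or pairs removed, Pdyn ran from −0.22 to 0.028, above 0 only without miRasd1 8 or pair 8. Against 22 genes called in all by limma, the replicate block gave 150 in limma, 139 in edgeR, 314 in DESeq2, 155 on TMM, 150 on total reads and 0 with no filter (smallest adjusted p 0.0553, 2641 at an unadjusted p under 0.05). Without it, DESeq2 gave 172, edgeR 18 and limma-voom 8, and leaving out a library or pair in any fit gave 0 to 484; the cause was not tested.

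Same-number correlations ranged, with a number left out, from −0.024 to 0.41 for Gal, 0.27 to 0.91 for Crh and −0.38 to 0.57 for Th. Without the 2 numbers farthest from the median they were 0.90 for Crh and −0.46 for Th. The relation of Gal and Th stayed at 0.84 to 0.98 with a pair left out, but its adjusted p was above 0.05 without pair 1, 3, 8 or 12 (0.0833, 0.278, 0.0556 and 0.0556), with fewer pairs to permute. That of Gal and Cck ran from −0.73 to 0.084, and was 0.17 without the 2 farthest pairs; that of Pdyn and Cck was −0.10 without its 2 farthest. For Crh, 18 to 54 reads per library limit the precision.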

Other observations

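Genes whose level followed that of each of the 5 over the 14 libraries were counted among genes averaging 100 normalised reads or more. After the group means were subtracted, 164 of 12037 genes had Pearson's r of at least 0.8 with Pdyn, 80 with Cck, 10 with Gal and 6 with Th, and 8 of 12038 with Crh, which is itself under that mean. The bound of 0.8 was set after the data were seen, and these values are a description across libraries that share depth and tissue content. For Pdyn, miRasd1 8 (6363 normalised reads), miCtl 11 (17718.5), miRasd1 11 (17416) and miRasd1 12 (17124) lay far from the other libraries. The counts were not repeated without them. ENSRNOG00000019708 was most like Pdyn (r = 0.98), followed by ENSRNOG00000007923 (r = 0.96).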
